A study of Mus musculus with 18 samples.

Results

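Alginate oligosaccharides (AOS) are short sugar chains cut from alginate, the polysaccharide of brown seaweed. Mice on a high-fat diet (HFD) met them in 2 ways in this series. The HFD+AOS mice were given AOS themselves at 10 mg/kg, and the A10-FMT mice were given the small-intestinal microbiota of donors that had been dosed with AOS at 10 mg/kg. The livers of these groups, 3 each, were compared with each other, which asks how far the transfer of microbes stands in for the compound. They are 6 of the 18 livers of the series, chosen by the labels of the samples, with no measured value used. RNA-seq values were deposited as RPKM, the reads of a gene scaled by its length and by the size of the library. A gene was tested if 3 or more of the 18 livers had an RPKM of 1 or higher, which 10507 of 19057 gene lines did.

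All mice were ICR males of 10 weeks, and all 4 groups used here ate the HFD. The HFD group received no AOS, and the Con-FMT group received the microbiota of donors that were not given AOS, so that each AOS group has a high-fat control of its own. Donor contents were pooled within each donor group before transfer, so that the recipients of a group shared 1 inoculum. The dosing schedule of the HFD+AOS mice is not given in the sources used here, nor is the hour at which any liver was taken. Where nothing says that replicates came from separate cages or days, the p-values measure only the spread between these livers.

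The liver burns, makes and exports lipid on a daily schedule. In its molecular clock, the activators Arntl (Bmal1), Clock and Npas2 drive the Per and Cry repressors, the nuclear receptors Nr1d1 and Nr1d2, and the PAR bZIP factors Dbp, Tef and Hlf, which carry the rhythm to enzymes of lipid and drug metabolism. Sterol synthesis is driven by SREBP2 (Srebf2), which is held back by the Insig proteins when sterol is plentiful. Both systems enter the comparisons below, and promoter sequences of 3 of their genes are shown because each holds the letters through which the system is known to act. They are 200 bases upstream of the RefSeq start (GRCm38.p6), with the E-box CACGTG in capitals in Ciart and Tef and the sterol element TCACCCCAC in capitals in Hmgcs1. The Ciart window lies at chr3:95882229-95882428 on the minus strand, that of Tef at chr15:81802473-81802672 on the plus strand, and that of Hmgcs1 at chr13:119690151-119690350 on the plus strand.
Ciart: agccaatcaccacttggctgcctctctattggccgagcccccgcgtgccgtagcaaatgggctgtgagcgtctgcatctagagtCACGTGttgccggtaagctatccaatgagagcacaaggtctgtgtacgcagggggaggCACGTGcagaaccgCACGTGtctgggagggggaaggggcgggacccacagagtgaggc
Tef: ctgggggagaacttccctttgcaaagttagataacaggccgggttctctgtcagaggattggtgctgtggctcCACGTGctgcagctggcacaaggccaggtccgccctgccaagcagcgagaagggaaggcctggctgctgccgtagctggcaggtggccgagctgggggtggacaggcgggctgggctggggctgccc
Hmgcs1: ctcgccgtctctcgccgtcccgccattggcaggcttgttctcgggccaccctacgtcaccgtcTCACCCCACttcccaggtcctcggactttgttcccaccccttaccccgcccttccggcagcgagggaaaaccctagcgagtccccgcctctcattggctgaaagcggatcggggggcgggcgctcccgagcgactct

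The E-box, searched on both strands in windows of 250 bases before to 50 bases after the start, was in 4 of the 11 windows of the clock repressors and PAR bZIP genes (36.4%) and in 10.5% of the 8373 windows of tested genes. The sterol element, TCACCCCAC or TCACGCCAC, was in 1 of 15 windows of the cholesterol synthesis genes, that of Hmgcs1, and in 0.812% of all windows. The motifs do not overlap each other in the windows printed. These are matches of letters only.

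No gene passed the test between A10-FMT and HFD+AOS livers. At an adjusted p under 0.05 in limma, 0 of 10507 genes were called (percent called 0), and the smallest adjusted p was 0.204. At an unadjusted p under 0.05 there were 779 genes (7.41%), 289 of them higher (2.75%) and 490 lower (4.66%) in A10-FMT. By their means, 4453 of the genes tested were higher and 6054 lower in A10-FMT. The 3 livers of the groups did not overlap in 1085 genes (10.3%). The cut of the study, an FDR of at most 0.001 with a log2 ratio of at least 1, called 0 genes as well. How close the groups were can be read from the intervals. The 95% interval of the log2 difference lay within 1 in either direction for 10128 genes (96.4%) and within 0.5 for 8574 genes (81.6%). For the rest the interval did not exclude a difference of that size. The share within 1 was nearly as high in the comparisons with controls described below. It was 94.4% in HFD+AOS against HFD, 95.5% in A10-FMT against Con-FMT and 94.4% in A10-FMT against HFD. Within 0.5 the shares were 70.5%, 76.9% and 72.5%.

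The distances between the groups overlapped those within them. The distance between a pair of livers, the root mean square difference of log2(RPKM + 1) over the tested genes, averaged 0.293 within HFD+AOS (0.276 to 0.313), 0.302 within A10-FMT (0.288 to 0.318) and 0.313 between them (0.287 to 0.339). The mean distance between groups exceeded that within groups by 0.0156 (exact permutation test, two-sided, p = 0.2), and 0 of the 10 splits of the 6 livers gave a larger excess. This design cannot go below 0.1, the value reached with the distance taken as 1 minus the Spearman correlation, with library medians set equal, and without A10-FMT 3. Both groups stood further from HFD livers on average, at 0.393 for HFD+AOS (0.318 to 0.431) and 0.394 for A10-FMT (0.322 to 0.444). These ranges overlapped that between the AOS groups. HFD and Con-FMT livers were as close to each other as the AOS groups were, at 0.310 (0.283 to 0.329). The mean distance within HFD was 0.322. The distances to Con-FMT livers were 0.352 for HFD+AOS and 0.342 for A10-FMT. A10-FMT liver 3 stood apart from its own group in this respect, since its nearest liver of all was Con-FMT 1, at 0.266. Several results below changed without this liver.

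**Figure D1:**
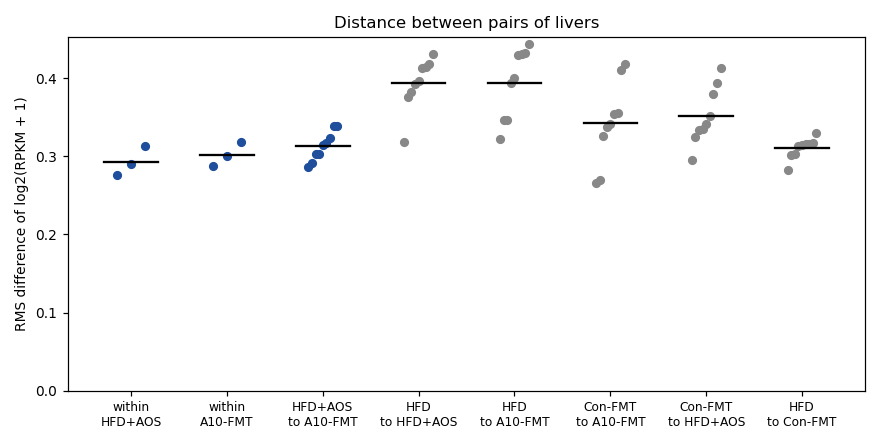
Distance between pairs of livers, as the root mean square difference of log2(RPKM + 1) over 10507 genes. Each point is a pair, lines are means, blue marks pairs of HFD+AOS and A10-FMT livers and grey marks pairs that involve HFD or Con-FMT livers. Pairs across HFD+AOS and A10-FMT (0.287 to 0.339) overlapped pairs within HFD+AOS (0.276 to 0.313) and within A10-FMT (0.288 to 0.318), and the mean distance of both to HFD livers was higher, at 0.393 and 0.394.

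Against their own controls, clock genes moved in the same direction in both AOS groups. In HFD+AOS against HFD, 919 genes were called (8.75%), 438 higher (4.17%) and 481 lower (4.58%). In A10-FMT against Con-FMT, 177 were called (1.68%), 48 higher (0.457%) and 129 lower (1.23%). These comparisons share no livers. They had 124 genes in common (1.18% of those tested), which is 13.5% of the first list and 70.1% of the second, and all 124 moved in the same direction, 35 higher and 89 lower. Across the tested genes, which are not independent replicates, the fold changes of the comparisons correlated with r = 0.579 (Spearman rho 0.512), and with r = 0.553 when the 19 clock genes tested were left out. So few genes can hardly move this value, which therefore cannot show whether the shared change is separate from the clock. The count in common rested on the livers and on the fit. It was 290 without A10-FMT 3, 53 without A10-FMT 1 or A10-FMT 2, 73 without HFD+AOS 1 and 43 without Con-FMT 2. Without Con 3 and AOS 3, livers of groups not compared here that enter only the shared spread, it was 56. It was 3 when each comparison was fitted on its own groups alone. In that last fit, A10-FMT against Con-FMT kept 4 calls, and of the genes described below with a call in that comparison, Ciart, Chka and Elovl3 kept theirs. In A10-FMT against HFD, which shares the HFD livers with the first comparison, 693 genes were called (6.6%), 275 higher (2.62%) and 418 lower (3.98%).

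**Figure D2:**
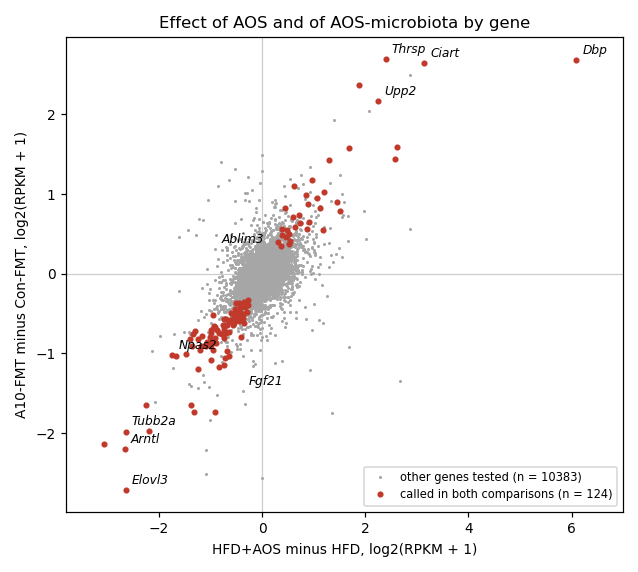
Effect of AOS (HFD+AOS minus HFD, x axis) and effect of AOS-microbiota (A10-FMT minus Con-FMT, y axis) for each gene tested, as differences of log2(RPKM + 1). Red points are the 124 genes called in both comparisons and grey points the other genes; the red points lie where both effects have the same sign, with Dbp at 6.09 and 2.68.

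The activators of the clock were low in both AOS groups. Arntl, the Bmal1 activator, had RPKM values of 12.11, 14.64 and 13.21 in HFD livers and 1.18, 1.23 and 1.32 in HFD+AOS livers. It had 8.02, 12.97 and 6.94 in Con-FMT livers and 0.79, 0.69 and 2.41 in A10-FMT livers. Every liver of both AOS groups thus lay below every control liver, while the AOS groups overlapped. The log2 change of Arntl was -2.67 in HFD+AOS against HFD (adjusted p = 6.38e-06) and -2.20 in A10-FMT against Con-FMT (adjusted p = 9.37e-05), and the difference between the AOS groups was -0.04 ± 0.22 (SE). Npas2, its partner, fell by 1.74 and 1.02 on the log2 scale in the same comparisons, and Nfil3, a repressor of PAR bZIP targets, fell by 1.67 and 1.03. Of the 6 genes of the Bmal1 phase tested, 5 were lower in HFD+AOS against HFD and 4 in A10-FMT against Con-FMT.

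Of the 13 repressors and PAR bZIP genes tested, 11 were called higher in HFD+AOS against HFD and 5 in A10-FMT against Con-FMT. Dbp, a PAR bZIP activator, was 0.56, 0.27 and 0.59 in HFD livers and 111.84, 88.90 and 97.76 in HFD+AOS livers. It was 16.54, 3.24 and 22.57 in Con-FMT livers and 126.90, 70.84 and 49.17 in A10-FMT livers. The Con-FMT livers lay between the HFD livers and both AOS groups, which overlapped each other. The log2 change of Dbp was 6.09 in HFD+AOS against HFD (adjusted p = 6.38e-06) and 2.68 in A10-FMT against Con-FMT (adjusted p = 0.0132), and the second call was lost without A10-FMT 1 (2.32, adjusted p = 0.076) or A10-FMT 2 (2.73, adjusted p = 0.0533). Ciart, a repressor of Bmal1-driven genes whose promoter above holds 3 E-boxes, was 0.05, 0.20 and 0.20 in HFD livers and 7.21, 9.82 and 10.68 in HFD+AOS livers. In Con-FMT livers it was 0.96, 0.63 and 1.90, and in A10-FMT livers 14.63, 13.66 and 8.99. It rose by 3.14 and 2.65 on the log2 scale in the comparisons with HFD and Con-FMT, and the calls held without each liver in turn. Per3, a period repressor, rose by 2.62 and 1.60, and Tef, whose window above holds 1 E-box, by 2.58 and 1.44, the second of which lost its call without A10-FMT 1, A10-FMT 2 or Con-FMT 2 (adjusted p up to 0.076). The clock lists were chosen with earlier results of these data known. The hour of sampling was not given, so that a difference in the time of collection and an effect of AOS cannot be told apart.

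**Figure D3:**
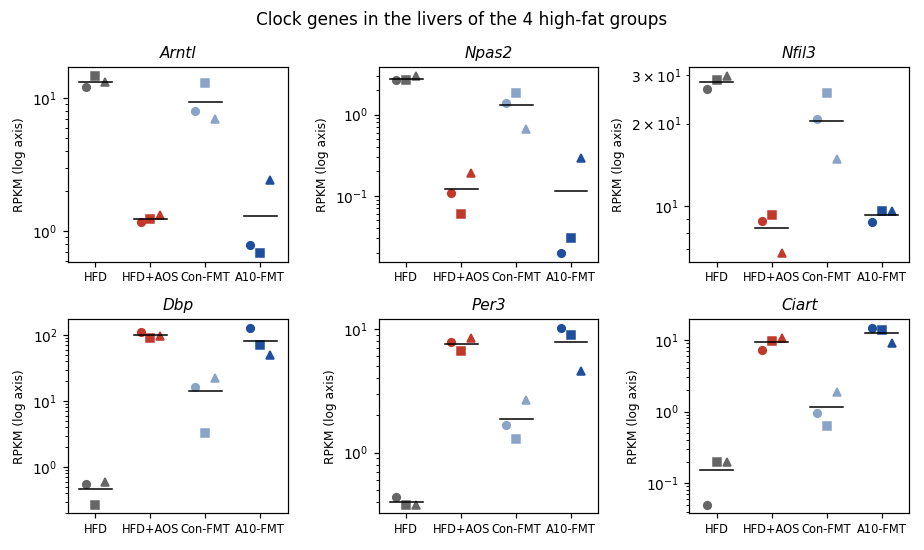
RPKM of 6 clock genes in each liver of the 4 high-fat groups, on log axes. Circles, squares and triangles are replicates 1, 2 and 3, and lines are group means. Arntl, Npas2 and Nfil3 were lower, and Dbp, Per3 and Ciart higher, in all livers of both AOS groups than in the HFD livers, with the Con-FMT means between.

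Other genes called in both comparisons were chosen here after their values were seen. Chka, the choline kinase that opens phosphatidylcholine synthesis, was 38.93, 48.05 and 45.34 in HFD livers and 8.91, 7.73 and 8.67 in HFD+AOS livers. Its values were 27.55, 39.79 and 29.39 in Con-FMT livers and 9.30, 7.91 and 11.65 in A10-FMT livers, with no control liver reaching the AOS livers. It fell by 2.25 and 1.64 on the log2 scale. Elovl3, a fatty acid elongase, fell by 2.64 and 2.72, and Cdkn1a, the cell cycle inhibitor p21, by 3.06 and 2.13. Gys2, the liver glycogen synthase, rose by 1.20 and 1.02, and Wee1, a kinase that delays mitosis, by 1.68 and 1.57. Thrsp, a lipogenic gene, rose by 2.39 and 2.70, and the second call was lost without A10-FMT 2 or Con-FMT 2 (adjusted p up to 0.0605). For these genes too, a difference in the time of collection and an effect of AOS cannot be told apart.

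Of the bile acid and retinoid genes, Nr1h4, the bile acid receptor FXR, was higher in both. It was 63.43, 73.37 and 58.57 in HFD, 84.99, 81.23 and 87.34 in HFD+AOS, 56.56, 64.33 and 60.66 in Con-FMT, and 88.71, 96.25 and 72.39 in A10-FMT livers. The log2 change was 0.38 in HFD+AOS against HFD (adjusted p = 0.0378) and 0.49 in A10-FMT against Con-FMT (adjusted p = 0.0285), and the AOS groups differed by 0.01 ± 0.10 (SE). Each call was lost in 5 of 6 refits that left out a liver, with adjusted p up to 0.156 and 0.152, and held without HFD 2 in the first and without A10-FMT 3 in the second. Cyp7a1, the rate-limiting enzyme of bile acid synthesis, passed the test in none of the comparisons. Rbp4, the retinol carrier of plasma, had a call in just the comparison of A10-FMT with HFD (0.43, adjusted p = 0.0261), which was lost without A10-FMT 1, A10-FMT 2, HFD 2 or HFD 3 (adjusted p up to 0.126). Dhrs9, a retinol dehydrogenase, did not exceed 0.16 in any liver and was not tested.

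Cholesterol synthesis genes were lower in A10-FMT than in HFD+AOS livers by their means, though not by the test. All 20 genes tested from this list had a lower mean in A10-FMT (6054 of 10507 over all genes), with a median log2 difference of -0.69 against -0.02 over all genes, and 14 of the 20 had an unadjusted p under 0.05. Over all genes, 4.66% were lower at an unadjusted p under 0.05. None of the 20 was called, and the livers of only 1 of them did not overlap (5%, against 10.3% over all genes). Hmgcs1, the synthase that commits acetoacetyl-CoA to the pathway and whose promoter above holds the sterol element, was 114.59, 112.92 and 258.89 in HFD+AOS livers and 31.72, 30.91 and 195.92 in A10-FMT livers. It was 123.48, 233.95 and 152.76 in HFD livers and 163.12, 146.79 and 139.78 in Con-FMT livers. A10-FMT 1 and 2 were thus the 2 lowest of all 12 livers, and A10-FMT 3 lay among the controls. Sqle, the squalene epoxidase, had the same shape, at 23.57, 28.73 and 47.78 in HFD+AOS livers and 8.43, 8.83 and 39.18 in A10-FMT livers. The log2 differences between A10-FMT and HFD+AOS were -1.35 ± 0.51 (SE) for Hmgcs1, -1.09 ± 0.39 for Sqle, -0.88 ± 0.28 for Msmo1 and -1.06 ± 0.35 for Idi1. Insig2, the retention protein of SREBP, was 68.95, 64.42 and 64.69 in HFD+AOS livers and 35.74, 30.65 and 115.18 in A10-FMT livers.

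These values turned on A10-FMT 3. Without A10-FMT 3, 8 genes were called between the AOS groups, and 4 of them were in sterol metabolism: Hmgcs1 (-2.22, adjusted p = 0.00946), Sqle (-1.77, adjusted p = 0.00866), Msmo1 (-1.31, adjusted p = 0.0322) and Insig2 (-0.97, adjusted p = 0.0322, against -0.38, adjusted p = 0.829, with all livers). The other 4 were Spon2 (-1.06, against -0.81 with all livers), Clpx (-0.88, against -0.57), 1 of the 2 lines of Plin2, the lipid droplet coat (-0.89, against -0.56), and Retnla (2.14, against 1.75). Idi1 was -1.50 without A10-FMT 3 and was not called (adjusted p = 0.0823). The list median was -1.09 without A10-FMT 3 and -0.43 without HFD+AOS 3. The mean log2(RPKM + 1) of the list was 5.52, 5.42 and 6.27 in HFD+AOS livers, 4.54, 4.67 and 5.84 in A10-FMT livers, and between 5.36 and 6.03 in HFD and Con-FMT livers. Against Con-FMT, 0 of the 20 genes passed the test in A10-FMT, and against HFD, 1 did, Idi1 (-1.27, adjusted p = 0.0392), which lost its call without A10-FMT 1, A10-FMT 2, HFD 2 or HFD 3 (adjusted p up to 0.164).

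**Figure D4:**
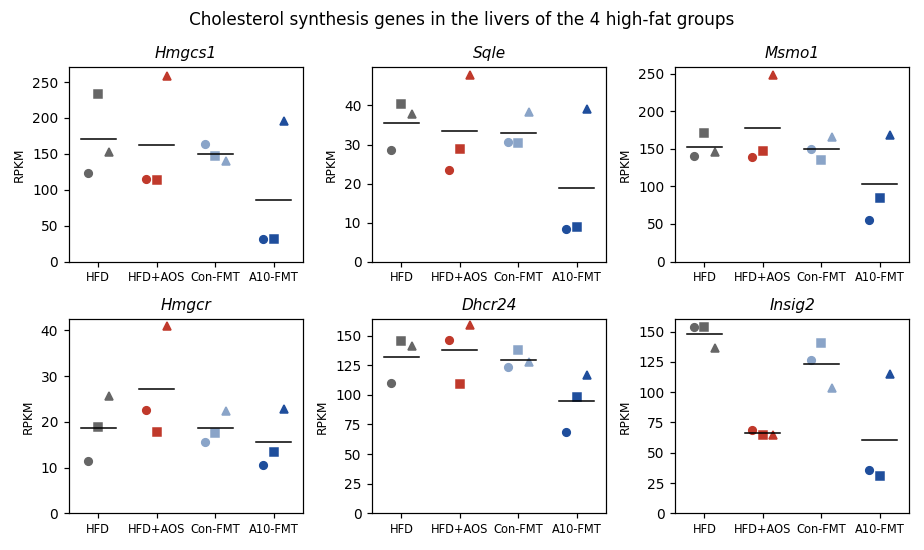
RPKM of 6 sterol genes in each liver of the 4 high-fat groups, with axes from 0. Circles, squares and triangles are replicates 1, 2 and 3, and lines are group means. A10-FMT 1 and 2 were lowest for Hmgcs1, at 31.72 and 30.91, and A10-FMT 3 was near the controls at 195.92.

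Heat shock genes had higher means in A10-FMT than in HFD+AOS livers. Of 16 genes tested from the list of heat shock and cold-induced genes, 15 had a higher mean in A10-FMT (4453 of 10507 over all genes). The list median was 0.48 (0.31 without HFD+AOS 2). At an unadjusted p under 0.05, 6 were higher and 1 lower, where the shares over all genes were 2.75% and 4.66%. Hspb1, a small heat shock protein, was 12.31, 12.09 and 18.63 in HFD+AOS livers and 23.96, 33.42 and 36.06 in A10-FMT livers, with no overlap (1.07 ± 0.32, SE). It was 30.85, 62.19 and 61.84 in HFD livers, so that HFD+AOS lay below all 3. In HFD+AOS against HFD, 7 of the 16 were called lower and 2 higher, namely Cirbp (0.88) and Rbm3 (0.68), RNA-binding proteins that cold induces; Rbm3 lost its call without HFD+AOS 1 or HFD+AOS 3 (adjusted p up to 0.0737). In A10-FMT against HFD, 0 were called lower and 1 higher, and in A10-FMT against Con-FMT 0 were called in either direction. No test compared these counts. Of 24 endoplasmic reticulum stress and chaperone genes tested, 11 were called lower and 1 higher in HFD+AOS against HFD, and 8 lower and 1 higher in A10-FMT against HFD, which share the HFD livers. Against Con-FMT, the control of its own, A10-FMT had 1 called lower and 0 higher. Over all genes tested, the shares called lower in these 3 comparisons were 4.58%, 3.98% and 1.23%.

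In the other lipid lists, 0 genes were called between the AOS groups. All 10 desaturases and elongases had a lower mean in A10-FMT (median -0.43, and -0.21 without HFD+AOS 3, 1 at an unadjusted p under 0.05), as had 30 of 31 fatty acid oxidation and ketogenesis genes (median -0.09, and -0.05 without A10-FMT 1, 3 at an unadjusted p under 0.05) and 16 of 19 genes of PPARA signalling (median -0.14, and -0.27 without HFD+AOS 2, 3 at an unadjusted p under 0.05). Crot, a peroxisomal carnitine acyltransferase, was 193.27, 193.01 and 168.99 in HFD+AOS and 116.14, 107.51 and 189.45 in A10-FMT livers, with A10-FMT 3 in the range of HFD+AOS. HFD livers had 319.20, 324.78 and 251.12 and Con-FMT livers 291.60, 239.86 and 256.15, above all livers of both AOS groups. Cyp4a14, a fatty acid hydroxylase, was 2.07, 3.99 and 18.46 in HFD+AOS and 0.36, 0.36 and 3.21 in A10-FMT livers, where replicate 3 was again the highest of each group. Of 14 lipogenesis genes, 10 had a lower mean in A10-FMT and 0 reached an unadjusted p under 0.05. Over all genes tested, 6054 of 10507 had a lower mean in A10-FMT and 4.66% were lower at an unadjusted p under 0.05, which lie beside the counts of these lists. Triglyceride assembly and droplet genes were split, 6 higher and 9 lower by their means, and of 9 cholesterol efflux and LXR target genes, 6 had a higher mean in A10-FMT and 3 a lower one.

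Interferon-stimulated genes were lower in A10-FMT by their means in 30 of 32 cases (6054 of 10507 over all genes), with a median of -0.29 and 0 called. At an unadjusted p under 0.05, 7 genes were lower, where the share over all genes was 4.66%. Ifih1, the RNA sensor MDA5, was 10.76, 8.78 and 10.68 in HFD+AOS livers and 7.24, 7.01 and 7.30 in A10-FMT livers. Kupffer cell and macrophage markers summed to 153 to 172 RPKM in HFD+AOS and 117 to 159 in A10-FMT livers, and 11 of 12 had a lower mean in A10-FMT. Their part in the interferon values was not tested. In bulk liver, fewer cells of a type and less RNA per cell cannot be told apart. Hepatocyte markers such as Alb and Apoa1 summed to 62819 to 71453 RPKM in HFD+AOS and 55432 to 60133 in A10-FMT livers. Gene by gene they were split, as 3 of the 8 had a higher and 5 a lower mean in A10-FMT (median -0.09).

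The 24 genes with the smallest unadjusted p, 12 in each direction, led the comparison, and in all 24 the livers did not overlap, at adjusted p between 0.204 and 0.384. They were picked on these values, which are a description. Among them, 8 were called in HFD+AOS against HFD, 4 in A10-FMT against Con-FMT and 5 in A10-FMT against HFD. Over all genes tested, the shares called were 8.75%, 1.68% and 6.6%, and the livers did not overlap in 10.3%. The picking used the same HFD+AOS and A10-FMT livers as these comparisons, so an excess over those shares is built in. Slc23a2, a vitamin C transporter, had the smallest p (3.22e-05), at 4.34, 4.74 and 5.24 in HFD+AOS and 3.59, 2.92 and 2.92 in A10-FMT livers (-0.48 ± 0.08, SE). HFD livers had 3.26, 3.38 and 2.83, which overlapped the A10-FMT livers. Depp1, a gene that FOXO factors induce, was 92.08, 82.04 and 53.52 in HFD+AOS and 37.10, 17.48 and 22.08 in A10-FMT livers (-1.57 ± 0.28). Con-FMT livers, at 37.79, 23.37 and 18.74, overlapped A10-FMT. Against HFD livers, Depp1 was called lower in A10-FMT as well (-1.29, adjusted p = 0.0117), a call kept in 5 of 6 refits that left out a liver. Gadd45a, a stress-induced growth arrest gene, was 8.24, 7.75 and 7.79 in HFD+AOS, 5.31, 4.12 and 3.60 in A10-FMT, 2.92, 1.53 and 2.12 in HFD and 2.43, 1.69 and 2.15 in Con-FMT livers. It rose in both groups against their controls, by 1.51 (adjusted p = 2.99e-05) and by 0.78 (adjusted p = 0.0139), the second of which was lost without A10-FMT 1, A10-FMT 2 or Con-FMT 2 (adjusted p up to 0.0894).

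Among the leading genes higher in A10-FMT, Selenbp2, a selenium-binding protein, was 709.71, 719.97 and 412.53 in HFD+AOS and 1713.30, 2059.06 and 1453.07 in A10-FMT livers (1.53 ± 0.38, SE). HFD livers had 2585.00, 1527.39 and 1074.69, and it was called lower in HFD+AOS against HFD (-1.44, adjusted p = 0.0305), a call lost without HFD+AOS 1, HFD+AOS 3, HFD 1 or HFD 2 (adjusted p up to 0.102). Pck1, which opens gluconeogenesis and was named from its list, was 374.20, 350.52 and 679.25 in HFD+AOS and 897.52, 846.02 and 756.72 in A10-FMT livers (0.89 ± 0.23). Tuft1, the gene of tuftelin, was 3.39, 2.31 and 4.12 against 8.13, 6.99 and 6.26. Gpat4, an acyltransferase that opens glycerolipid synthesis, was 23.64, 22.49 and 22.25 against 29.79, 28.60 and 25.22. Retnla, a resistin-like gene, was 0.28, 0.14 and 0.00 in HFD+AOS and 7.87, 1.81 and 1.25 in A10-FMT livers. The summed RPKM of adipocyte markers was 29.4 in A10-FMT 1, 2.15 in A10-FMT 2, 0.08 in A10-FMT 3 and at most 0.47 in the other livers. In A10-FMT 3, where Retnla was 1.25, the sum thus lay in the range of the livers outside A10-FMT. The part of adipocyte markers in the value of Retnla was not tested.

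The loci, as protein-coding genes of GENCODE M21 on GRCm38, are chr2:132052496-132145108 (minus strand) for Slc23a2, chr6:116650609-116652794 (plus) for Depp1, chr6:67035096-67037457 (minus) for Gadd45a and chr16:48842551-48844461 (plus) for Retnla.

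**Figure D5:**
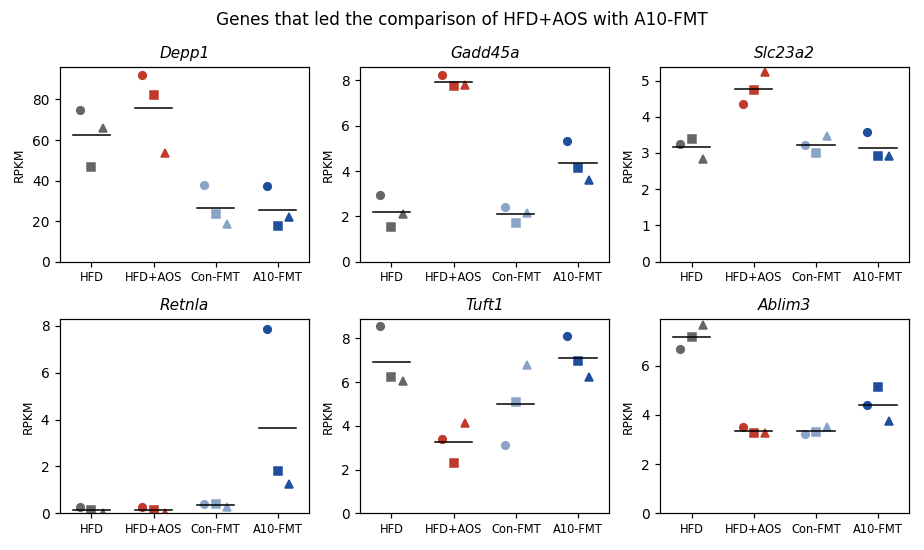
RPKM of 6 genes in each liver of the 4 high-fat groups, with axes from 0. Circles, squares and triangles are replicates 1, 2 and 3, and lines are group means. HFD+AOS livers lay above A10-FMT livers for Depp1, Gadd45a and Slc23a2 and below them for Retnla, Tuft1 and Ablim3.

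The difference between the effect of AOS and the effect of AOS-microbiota was called for 1 gene (0.00952%), and 784 genes (7.46%) had an unadjusted p under 0.05. Ablim3, an actin-binding LIM protein, was 6.66, 7.18 and 7.66 in HFD livers and 3.51, 3.26 and 3.25 in HFD+AOS livers. It was 3.23, 3.31 and 3.52 in Con-FMT livers and 4.39, 5.13 and 3.75 in A10-FMT livers. It fell by 0.91 on the log2 scale with AOS (adjusted p = 9.37e-05) and had a log2 difference of 0.31 with AOS-microbiota (adjusted p = 0.144), and the effects differed by 1.22 (SE 0.14, adjusted p = 0.00323). Against HFD livers it fell in A10-FMT as well, by 0.60 (adjusted p = 0.00273). Con-FMT livers were already as low as HFD+AOS livers. Fgf21, a hormone of the fasting liver, fell by 1.47 on the log2 scale in A10-FMT against Con-FMT (adjusted p = 0.00551) and by 1.25 against HFD (adjusted p = 0.00809), and its log2 difference in HFD+AOS against HFD was -0.37 (adjusted p = 0.362). It was 2.81, 2.27 and 4.20 in HFD+AOS and 1.08, 1.15 and 1.37 in A10-FMT livers, without overlap, and the difference between the effects missed the test (-1.10 ± 0.35, SE, adjusted p = 0.518). The ribosomal protein, proteasome and respiratory chain lists had medians within 0.03 of 0 and no gene at an unadjusted p under 0.05.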

How the data were processed

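Liver RNA-seq of 18 mice, 3 in each of 6 groups, was used, with groups taken from the labels. The authors deposited RPKM values, rounded to 2 decimals. The paper's methods name SOAPaligner v. 2.20 with up to 2 mismatches and every hit of a read reported, and the submitters' processing notes name Bowtie 0.12.2 and the build mm10. The unit is taken from the methods, because the header names none. As reads could count for several near-identical genes, values of the Cyp4a, Hspa1, Selenbp and Retnl families are uncertain. RPKM carry no read numbers, so absolute depth and the precision of low values are unknown. The smallest step of sparse genes had a median ratio of 1.00 in the 6 livers compared. Only values close to the smallest of a gene entered this ratio, so it cannot show a difference in depth. The RPKM of the 6 livers summed to 719765 to 777378, with 14698 to 14982 genes above 0.

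Values were log2(RPKM + 1), fitted with 6 group means over all 18 livers (limma 3.58.1 in R 4.3.3, eBayes with trend), adjusted after Benjamini and Hochberg, and called at an adjusted p under 0.05. A fold change on this scale understates the change of low genes. The fit was tested on simulated data. DEGseq, which the study used, needs read numbers and was not run. Gene lists were described by counts and medians, with no set test. Members and lists were chosen with earlier results of these data known. Genes named are the 12 with the smallest p in each direction, up to 2 of each list, the genes the study names for the liver, fixed clock and lipid genes, and up to 3 in each direction of the difference between effects. Others named, among them Hmgcs1, Insig2, Idi1, Tef, Nfil3, Spon2, Clpx, Plin2, Cirbp and Rbm3, were chosen after their values were seen. Promoter windows are from RefSeq (GRCm38.p6), which matched 8373 genes. The labels give no pairing of livers by replicate number, and the main fit used none. The deviations of same-numbered HFD+AOS and A10-FMT livers correlated with r of 0.149, 0.0487 and 0.142. Livers with different numbers were not set beside these, so the values cannot decide whether the numbers pair the livers. Alternatives were library medians set equal, a pseudocount of 0.1, no filter on low values, fits on the compared groups alone, the replicate block, a distance of 1 minus the Spearman correlation, each liver left out, and leaving out Con 3 and AOS 3, which earlier work described as close to mixtures of other livers. Applying them to the comparisons with controls was chosen after seeing the data. Tables and figures were made in Python 3.11.15 (pandas 2.3.3, numpy 2.4.6, matplotlib 3.10.9).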

Additional observations from a re-analysis of the deposited data

Results flagged for a closer look

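Ablim3 stood out because the effect of AOS and the effect of AOS-microbiota on it differed, by 1.22 on the log2 scale. The call held in all 12 refits that left out 1 of the high-fat livers. Its Con-FMT livers, whose donors had no AOS, were as low as HFD+AOS livers and below HFD livers. This gap between the controls enters the difference by its arithmetic. The AOS groups themselves differed by 0.31 on the log2 scale and were not called (limma, adjusted p = 0.503).

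Adipocyte markers, which lie below the filter on low values and entered no comparison, summed to 29.4 RPKM in A10-FMT 1. Cfd was 22.05 and Adipoq 4.42 in this liver, against at most 0.32 and 0.11 in the livers outside A10-FMT, and Fabp4 was 28.02 against 7.31 to 14.78. A cause was not tested.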

How the results depend on the processing

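The direction of the differences between the AOS groups printed in the report held under the alternatives, except for Arntl and Nr1h4, whose differences were near 0 and whose sign changed when a liver was left out, from -0.37 to 0.14 for Arntl and from -0.075 to 0.13 for Nr1h4. Small differences of other genes shared by both effects, for which no value is printed, behaved likewise, and the genes listed here were settled after seeing that. The count of genes called between the AOS groups, 0, was 1 without the filter on low values (Gm40365, listed at 0.15, 0.13 and 0.07 in HFD+AOS and at 0 in the other livers), 2 with the replicate block (Depp1, adjusted p = 0.0418, and Gadd45a, adjusted p = 0.0245), and 0 to 8 when a liver was left out (8 without A10-FMT 3). The replicate block changed the calls of the comparisons with controls by less than 1.5 times.

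In HFD+AOS against HFD, the 919 calls became 496 without Con 3 and AOS 3, 435 in a fit on its own groups, and 320 (without HFD 3) to 1282 (without HFD 1) when a liver was left out. In A10-FMT against Con-FMT, the 177 calls became 100 without the filter, 82 without Con 3 and AOS 3, 4 in a fit on its own groups, and 51 (without Con-FMT 2) to 564 (without A10-FMT 3). In A10-FMT against HFD, the 693 calls became 1070 with library medians set equal, 395 without Con 3 and AOS 3, 78 in a fit on its own groups, and 271 (without A10-FMT 2) to 1218 (without A10-FMT 3). The difference between the effects was called for 2 genes without the filter and for 1 to 5 genes when a liver was left out (5 without A10-FMT 1), Ablim3 among them each time. The excess of the distance between groups was 0.0039 to 0.0275 over the livers left out, with an exact permutation p of 0.1 without A10-FMT 3, with library medians set equal, and with 1 minus the Spearman correlation as the distance (0.0019), and of 0.5 without HFD+AOS 1 or A10-FMT 2. Over the genes followed in the refits, 2052 tests kept their direction and their side of the threshold. A call was lost in 270 and gained in 13, and 5, of Arntl and Nr1h4, changed sign. The cause was not tested. Comparisons with controls were followed only for genes called in the main fit, so these could lose a call but not gain one. The genes followed between the AOS groups were settled after seeing signs change. These counts therefore depend on the choice of genes and do not measure stability. Depth, which RPKM do not show, limits low genes such as Dhrs9 and the adipocyte markers.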

Other observations

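Cyp2a4, a cytochrome P450 higher in female than in male mouse liver, was 44.17 in HFD+AOS 1 and between 0.08 and 1.22 in the other 5 livers of HFD+AOS and A10-FMT. The list of female-biased genes had a median difference of -0.69 in A10-FMT against HFD+AOS with 0 of 8 at an unadjusted p under 0.05, and -0.29 without HFD+AOS 1. Neutrophil markers summed to 1.69 to 9.05 RPKM in A10-FMT and 1.76 to 2.92 in HFD+AOS livers. B and plasma cell markers summed to 2.11 to 10.72 in A10-FMT and 2.40 to 3.76 in HFD+AOS livers, so that the groups overlapped in both. Globin and other erythroid genes summed to 1237 to 2958 RPKM in A10-FMT and 873 to 1266 in HFD+AOS livers.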
